A study of Mus musculus with 6 samples.

Results

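The proteasome genes and the genes of the major histocompatibility complex (MHC) and its class I pathway were followed in lymphatic endothelial cells of the mouse meninges, the membranes around the brain. The members were taken by gene symbol: proteasome subunits, activators, inhibitor and assembly factors (symbols that start with Psma to Psmg and a digit), all symbols that start with H2-, and 10 named genes of class I peptide loading and its control, of which B2m, Calr, Canx, Pdia3 and Tap2 were listed. This gave 30 genes of the 4233 in the table, 15 for the proteasome and 15 for the MHC. The symbol rule also took the class II chains H2-Aa and H2-Ab1, so the MHC set is not class I alone. The GENCODE annotation of GRCm38 has 50 protein-coding proteasome symbols and 44 protein-coding MHC symbols that meet the rule. The others, among them the inducible catalytic subunits Psmb8, Psmb9 and Psmb10 and the peptide transporter subunit Tap1, were not analysed here.

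There were 3 libraries from male 5xFAD hemizygous mice, which carry familial Alzheimer disease transgenes under the neuronal Thy1 promoter and deposit amyloid in the brain. They were set against 3 libraries from male non-transgenic littermates (WT). Both groups were on the C57BL/6J strain and 6 months old, and each library pooled the meninges of 10 mice. Live CD45-negative single cells positive for CD31 and podoplanin had been sorted, and their RNA was amplified linearly before sequencing. The genotype was not checked from the expression values.

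The proteasome is a barrel-shaped protease that degrades ubiquitin-tagged proteins. Its core particle is built of alpha and beta rings, and regulatory particles or activators open it. Some of the peptides it releases are carried by the TAP transporter into the endoplasmic reticulum, where chaperones load them on MHC class I heavy chains paired with beta-2-microglobulin for display to CD8 T cells and natural killer cells. MHC class II chains present peptides from the endosomal route to CD4 T cells, and lymphatic endothelial cells are known to carry both classes.

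Recovered reads in the listed genes came to between 7960827 and 13255050 per library, and full library totals were not used here. Every member had reads in every library, with 4 the lowest count. Proteasome members made up 0.0928, 0.192 and 0.260% of these reads in 5xFAD libraries 1, 2 and 3, and 0.117, 0.134 and 0.158% in the WT libraries. MHC members made up 0.428, 0.585 and 0.597% in 5xFAD, and 0.448, 0.584 and 0.656% in WT. The group ranges overlapped for both sets. All 8 lymphatic endothelial markers were listed (Prox1, Flt4, Lyve1, Pdpn, Pecam1, Ccl21a, Mmrn1 and Reln), with summed values of 215844 to 334276 in 5xFAD and 236762 to 278135 in WT. Of 18 leukocyte markers, Cx3cr1 and Mrc1 were listed, and Mrc1 is also expressed by lymphatic endothelium. Their sum was 8187 to 11371 in 5xFAD and 8429 to 11862 in WT, and the other 16 were not analysed here. The 7 listed blood endothelial markers summed to 28386 to 37419 in 5xFAD and 27770 to 42910 in WT. The 5 listed meningeal fibroblast markers summed to 23995 to 26659 in 5xFAD and 21974 to 40861 in WT. What such cells add to the members' values was not tested. None of the 24 listed markers of these and other cell types passed limma, edgeR or DESeq2, and 0 had an unadjusted limma p under 0.05. In these bulk samples, fewer cells of a type and less RNA per cell cannot be told apart.

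Of the 30 members, 1 was called, H2-Bl, which was lower in 5xFAD (limma on log2(normalised count + 1), Benjamini-Hochberg adjusted p under 0.05, two-sided, 4152 genes tested). That is 1 of 30, against 6.36% of all tested genes called. In the MHC set 1 of 15 fell, against 4.48% of all tested genes called lower, and 0 of 15 rose, against 1.88% called higher. Over all genes 78 were called higher and 186 lower, a split that became 120 higher and 160 lower with quantile normalization. In the proteasome set 0 of 15 were called by limma. On recovered reads, Psme1 was called higher by edgeR, against 1.93% of all genes called higher, and by DESeq2, against 3.93%. At an unadjusted limma p under 0.05 stood 5 of the 30 (Psmd7, Psme1, Calr, Psmd12 and H2-Bl), and the share among all tested genes was 16.3%. The groups did not overlap for 4 of the 30 (Calr and H2-Q10 with all 5xFAD libraries higher, H2-Bl and Psmd9 with all lower), against 18.1% of all tested genes. For both directions together the members' counts were near or below these shares, and they are no result about the members as a set.

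The median log2 fold change (5xFAD over WT) was -0.12 in the proteasome set, with 7 genes positive and 8 negative, and 0.10 in the MHC set, with 8 positive and 7 negative. The proteasome median turned to 0.099 with quantile normalization and 0.011 with only genes of a mean of at least 50. The MHC median turned to -0.15 by edgeR, -0.09 by DESeq2 and -0.02 with libraries scaled to the same total. Over all tested genes the median was -0.02. The median absolute log2 fold change was 0.52 for the proteasome set, 0.70 for the MHC set and 0.79 for all tested genes. Standard errors of the members' log2 fold changes ran from 0.47 for B2m to 1.07 for H2-Bl.

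**Figure D1:**
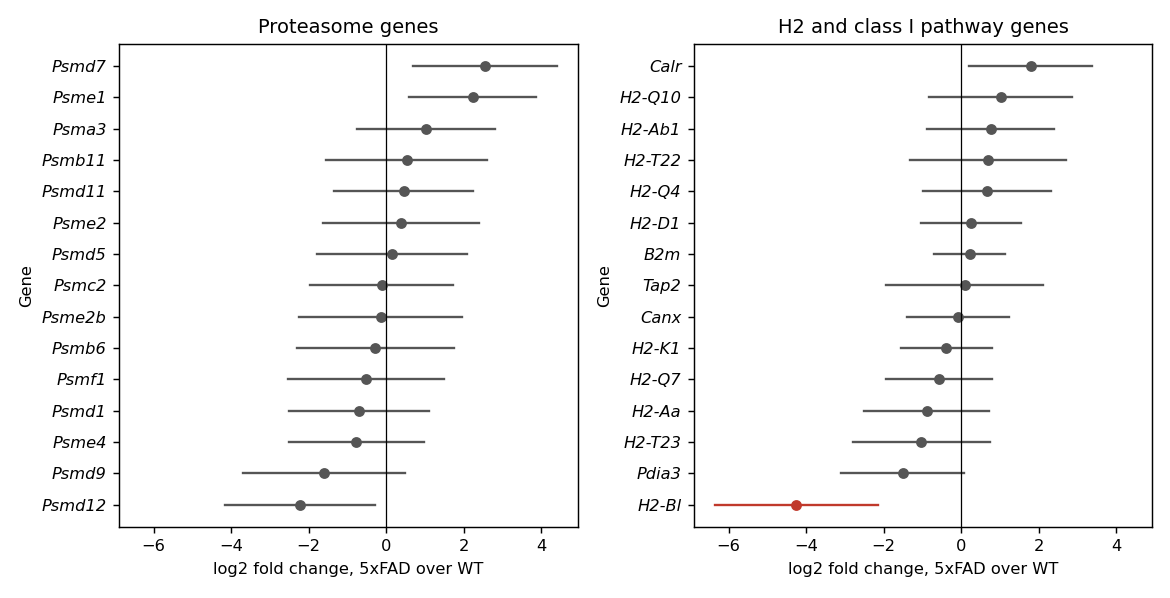
Log2 fold change (5xFAD over WT) of the 15 proteasome genes (left) and the 15 MHC and class I pathway genes (right), with the 95% interval of the limma fit as a line; each set is sorted by value. H2-Bl, in red, is the 1 member called, and the intervals of Psmd7, Psme1, Psmd12 and Calr also leave out 0 before adjustment over all genes.

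H2-Bl, a gene of the MHC T region that GENCODE classes as a polymorphic pseudogene (GRCm38, chromosome 17, 36080115 to 36084223, minus strand), fell to 25.7, 4.86 and 9.29 normalised counts in the 5xFAD libraries, against 316, 228 and 152 in WT. The highest 5xFAD library was below the lowest WT library. The recovered reads behind these values were 31, 4 and 7 in 5xFAD, and 385, 245 and 172 in WT. Its means were 13.3 ± 10.98 in 5xFAD and 232 ± 82.2 in WT (SD, n = 3 each), and the log2 fold change was -4.25 (SE 1.07; limma adjusted p = 0.00204). The call held in each of the 20 other settings tried, with log2 fold changes from -4.85 to -3.75, the lowest without 5xFAD library 1. Among these settings, the looser threshold of an adjusted p under 0.1 could not lose the call. The filter at a mean of 50 kept the gene only through its WT level. Of the distinct 31-base words of its transcripts, 21.5% also occur in transcripts of other genes, among them H2-T23 with 9.98%, so reads may have been divided between copies.

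The heavy chains that carry most class I display, H2-K1 and H2-D1, and their light chain B2m were not called. B2m was at 17554, 15323 and 13539 normalised counts in 5xFAD, and at 10509, 16921 and 12906 in WT (log2 fold change 0.22, 95% interval -0.70 to 1.15). H2-K1 was at 6870, 6681 and 4947 in 5xFAD, and at 5965, 5938 and 14063 in WT (-0.38, interval -1.56 to 0.81). H2-D1 was at 4593, 7190 and 5352 in 5xFAD, and at 6173, 2638 and 6322 in WT (0.26, interval -1.04 to 1.56). The groups overlapped for all of these genes, whose limma adjusted p ran from 0.854 to 0.913, and the limma intervals still admit a change of more than 2-fold for each. These intervals rest on the spread of genes of like level, and the replicates of B2m itself varied less. H2-K1 and H2-D1 share transcript sequence (13.8% of the H2-D1 words occur in H2-K1), so their split is uncertain.

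Per kilobase of the longest annotated transcript, B2m stood above every other member in all 6 libraries. It had 17991 ± 2339 normalised counts per kb in 5xFAD and 15634 ± 3767 in WT (SD, n = 3 each). Its lowest library, at 12220, was above the highest of any other member in any library, 7812 for Psme1 in 5xFAD library 3. By the mean over all libraries H2-K1 followed with 3290 ± 565 per kb in 5xFAD and 4619 ± 2499 in WT, then H2-D1 with 2717 ± 635 in 5xFAD and 2400 ± 992 in WT. Below B2m neighbours in this order overlapped: H2-D1, H2-Ab1, Psme1 and Calr differed in mean level per kb by less than their spread over libraries. Psmd9 was the lowest, at 8.0 ± 6.67 per kb in 5xFAD and 21.05 ± 5.88 in WT. The order depends on the transcript length taken, such as 4209 bases for H2-Q7 and 2102 for H2-D1, and other lengths were not tried.

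The B2m promoter and that of H2-Aa are shown because each carries letters of motifs known from MHC promoters. The windows hold 300 bases around the annotated start (RefSeq, GRCm38.p6), at chr2:122147437-122147736 on the plus strand for B2m and chr17:34287774-34288073 on the minus strand for H2-Aa. Capitals mark the interferon-stimulated response element (ISRE: GAAA, any 2 bases, GAAA), the cyclic AMP response element TGACGTCA and the NF-Y motif CCAAT, each read on both strands.
B2m: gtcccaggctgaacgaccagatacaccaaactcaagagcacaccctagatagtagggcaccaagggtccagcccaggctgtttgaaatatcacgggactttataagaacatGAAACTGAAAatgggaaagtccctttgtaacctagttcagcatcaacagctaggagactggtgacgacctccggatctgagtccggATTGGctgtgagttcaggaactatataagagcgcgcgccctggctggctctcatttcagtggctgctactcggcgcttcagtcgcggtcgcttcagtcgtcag
H2-Aa: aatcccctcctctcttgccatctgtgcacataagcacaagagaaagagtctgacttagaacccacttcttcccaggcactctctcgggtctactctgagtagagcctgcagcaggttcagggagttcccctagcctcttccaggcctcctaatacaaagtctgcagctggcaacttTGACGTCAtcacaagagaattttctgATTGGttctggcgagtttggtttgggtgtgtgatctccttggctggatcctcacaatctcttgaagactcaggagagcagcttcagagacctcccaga

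Of the 30 members, 26 matched the promoter table, with 29 windows. The ISRE letters were in 5 of these 29 (B2m, H2-T22, H2-T23, Psmd9 and Psme1), or 17.2%, and in 3.44% of the 32851 windows of all genes. CCAAT was in 51.7% of member windows and 37.4% of all, and TGACGTCA in 3.45%, H2-Aa alone, and 1.79% of all. An NF-kB type motif (GGGA, any 4 bases, CC) was in 51.7% of member windows and 20.7% of all. TGANNNNGC, an antioxidant response element type, was in 65.5% and 41.3%, and TTCNNNGAA, bound by STAT factors, in 0 of 29 and 8.30%. Matches to different motifs may overlap each other. The windows are not independent: those of H2-K1 overlap each other, as do those of Psme2, and each was counted. The windows of H2-K1, H2-D1, H2-Q4 and H2-Q7 are also alike in sequence, and the shares were not tested. Of the 5 genes with the ISRE letters, B2m (0.22), H2-T22 (0.70) and Psme1 (2.23) had positive log2 fold changes, and H2-T23 (-1.02) and Psmd9 (-1.60) negative ones. None of the 5 passed limma, so these signs are uncertain, and a link of the letters to the values was not tested. The letters mark exact matches, not sites in use. Variants of a motif were not searched, so windows without the ISRE letters, such as those of H2-K1 and H2-D1, may still hold such an element.

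The other nonclassical heavy chains were not called. H2-Q10, known as a secreted class I chain of liver, was at 1113, 1391 and 1900 normalised counts in 5xFAD, and at 918, 727 and 520 in WT. All 5xFAD libraries were higher, yet the log2 fold change of 1.03 (SE 0.94) did not pass (limma adjusted p = 0.677), and 30.3% of its transcript words occur in other genes, with 21.9% in H2-Q7. H2-Q7, which encodes the Qa-2 antigen, was at 1915, 2061 and 10837 in 5xFAD, and at 4942, 5886 and 4849 in WT. Its spread lay in 5xFAD, where library 3 was 5.66 times the lowest, against 1.21 times in WT. H2-T23, which encodes Qa-1, a ligand of the NKG2A receptor on natural killer cells, was at 613, 1054 and 1142 in 5xFAD, and at 2327, 635 and 4209 in WT (log2 fold change -1.02, SE 0.91). It was -0.43 without WT library 3 and -1.79 without WT library 2. H2-Q4 ranged from 1891 to 3780 in 5xFAD and from 356 to 3505 in WT, and H2-T22, a ligand of some gamma delta T cells, from 212 to 1011 in 5xFAD and from 66.0 to 885 in WT. In each, 1 WT library lay far below the rest, and H2-T22 shares 47.2% of its words with H2-T10 and H2-Q4 19.5% with H2-Q6.

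**Figure D2:**
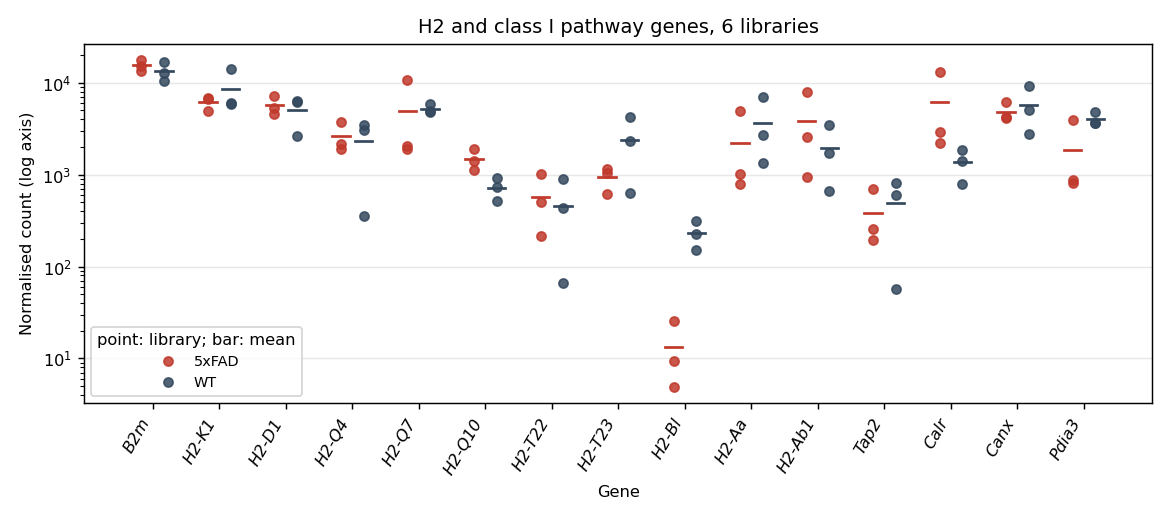
Normalised counts (log axis) of the 15 MHC and class I pathway genes in 3 5xFAD libraries (red, left of each pair) and 3 WT libraries (dark, right), with the mean of each group as a bar. H2-Bl is the gene with the widest gap, at 4.86 to 25.7 in 5xFAD and 152 to 316 in WT, while B2m, H2-K1 and H2-D1 overlap.

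In the endoplasmic reticulum, the listed chaperones of class I folding were not called, and their log2 fold changes had both signs. Calr, the lectin chaperone of the peptide-loading complex, was at 2948, 13261 and 2229 normalised counts in 5xFAD, and at 1422, 1861 and 787 in WT. All 5xFAD libraries were higher, with library 2 at 5.95 times the lowest of its group. The log2 fold change was 1.79 (SE 0.81; limma adjusted p = 0.204), and 1.00 without that library. Pdia3, the disulfide isomerase that pairs with it, was at 811, 869 and 3920 in 5xFAD, and at 3677, 3611 and 4763 in WT. Here 5xFAD libraries 1 and 2 were below all WT libraries and library 3 was among them (log2 fold change -1.50, SE 0.81; limma adjusted p = 0.343). Canx, the membrane-bound relative of Calr, was at 4207, 4135 and 6157 in 5xFAD, and at 2742, 9149 and 5101 in WT, where the lowest and the highest library both lay (log2 fold change -0.09, SE 0.67). Tap2, which pairs with Tap1 in the peptide transporter, ranged from 195 to 693 in 5xFAD and from 57.5 to 801 in WT, a ratio of 13.9 within WT.

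The class II chains H2-Aa and H2-Ab1, which pair to form the I-A molecule, were both measured in every library of these cells. H2-Aa was at 1028, 794 and 4892 in 5xFAD, and at 1353, 2672 and 6941 in WT (log2 fold change -0.88, SE 0.82; limma adjusted p = 0.685), and its log2 fold change ran from -1.70 without 5xFAD library 3 to -0.26 without WT library 3. H2-Ab1 was at 2541, 936 and 8025 in 5xFAD, and at 657, 1713 and 3484 in WT (0.76, SE 0.83; limma adjusted p = 0.756). In both genes and both groups library 3 was the highest, and neither gene passed. The ratio of H2-Aa to H2-Ab1 within a library was 0.404, 0.848 and 0.610 in 5xFAD, and 2.06, 1.56 and 1.99 in WT. The groups did not overlap in this ratio, which was chosen after the values were seen and is given with no test. All other ratios taken in the same way overlapped: H2-K1 and H2-D1 over B2m, Calr over Canx, Psme1 over Psme2, and Psmd1 over Psmd7. Of all tested genes taken singly, 18.1% had groups that did not overlap. The share among ratios of other gene pairs was not taken, so the class II ratio is no result by itself. Transcript words shared with other genes were 0.91% for H2-Aa and 0.27% for H2-Ab1. The leukocyte markers Cx3cr1 and Mrc1 overlapped between the groups, and their part in these values was not tested.

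**Figure D3:**
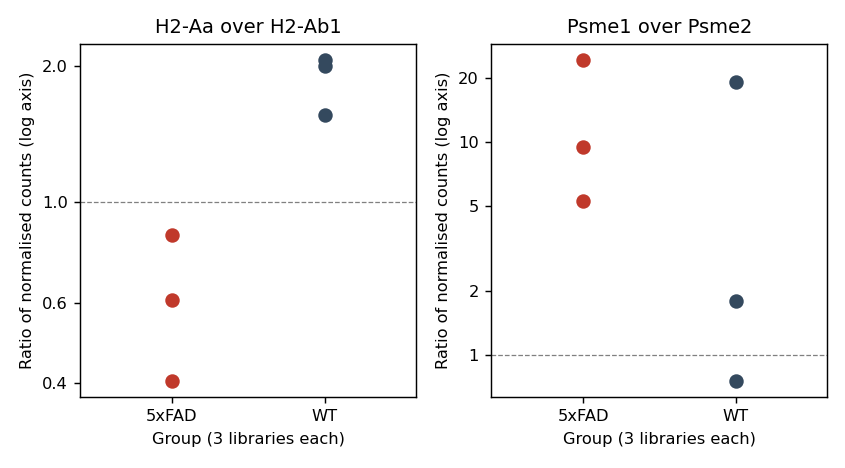
Ratio of normalised counts within each library (log axis) for partner chains, H2-Aa over H2-Ab1 (left) and Psme1 over Psme2 (right), with 1 point per library. The class II ratio was 0.404 to 0.848 in 5xFAD and 1.56 to 2.06 in WT, and was chosen after the values were seen, with no test. The ratio of the activator subunits overlapped, at 5.30 to 24.4 in 5xFAD and 0.753 to 19.3 in WT.

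Among the proteasome genes, the listed members of the core particle showed no call by limma. Psma3, an alpha ring subunit, was at 1427, 1245 and 3102 normalised counts in 5xFAD, and at 248, 1425 and 1835 in WT (log2 fold change 1.03, SE 0.91, and 0.13 without WT library 1). Psmb6, a catalytic beta subunit of the constitutive core that interferon-induced Psmb9 can replace, was at 178, 883 and 135 in 5xFAD, and at 127, 556 and 548 in WT (-0.28, SE 1.04). Psmb11, known as the catalytic subunit of cortical thymic epithelium, was at 145, 105 and 532 in 5xFAD, and at 104, 82.8 and 316 in WT (0.52, SE 1.06). It had reads in all 6 libraries, between 86 and 401, and 5.45% of its transcript words occur in other genes. The groups overlapped for all of these genes.

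The largest differences of the proteasome set lay in the regulatory particle and in an activator. Psmd7, a lid subunit that partners the deubiquitinase of the complex, was at 1289, 3094 and 2856 normalised counts in 5xFAD, and at 496, 1309 and 87.6 in WT. WT library 2 lay just above 5xFAD library 1, and the other 2 WT libraries lay below all 5xFAD libraries. The log2 fold change was 2.54 (SE 0.95) and did not pass (limma adjusted p = 0.0897), but it passed without WT library 2 (3.42, limma adjusted p = 0.0402) and was 1.48 without WT library 3. Psmd12, another lid subunit, went the other way, at 90.4, 1380 and 215 in 5xFAD, and at 719, 844 and 4533 in WT (-2.22, SE 0.99; limma adjusted p = 0.194). In 5xFAD, library 2 stood above the other 2, at 15.3 times the lowest. Without that library Psmd12 passed (-3.32, limma adjusted p = 0.0461), while it was -1.36 without 5xFAD library 1 and -1.37 without WT library 3 (limma adjusted p = 0.614 and 0.702).

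Psmd1, the scaffold subunit of the base, showed the same library standing apart, at 275, 3948 and 637 in 5xFAD, and at 1885, 1487 and 1088 in WT (log2 fold change -0.71, SE 0.92). Psmd11, a lid subunit, ranged from 907 to 2696 in 5xFAD and from 714 to 1594 in WT, and the groups overlapped. Psmc2, an ATPase of the base, was at 1090, 1297 and 647 in 5xFAD, and at 659, 915 and 1934 in WT (-0.12, SE 0.94). Subunits of the regulatory particle had log2 fold changes from -2.22 to 2.54. The assembly chaperone Psmd5 was at 521, 759 and 791 in 5xFAD, and at 1287, 195 and 931 in WT, where it spread more widely (0.14, SE 0.99). Psmd9, the other assembly chaperone, was at 9.95, 41.3 and 11.9 in 5xFAD, and at 72.3, 41.8 and 52.2 in WT. Its groups did not overlap, by a margin of less than 1 count, and the log2 fold change of -1.60 (SE 1.07) did not pass (limma adjusted p = 0.495). Of its words, 25.0% occur in Gm26745, so its reads are uncertain.

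**Figure D4:**
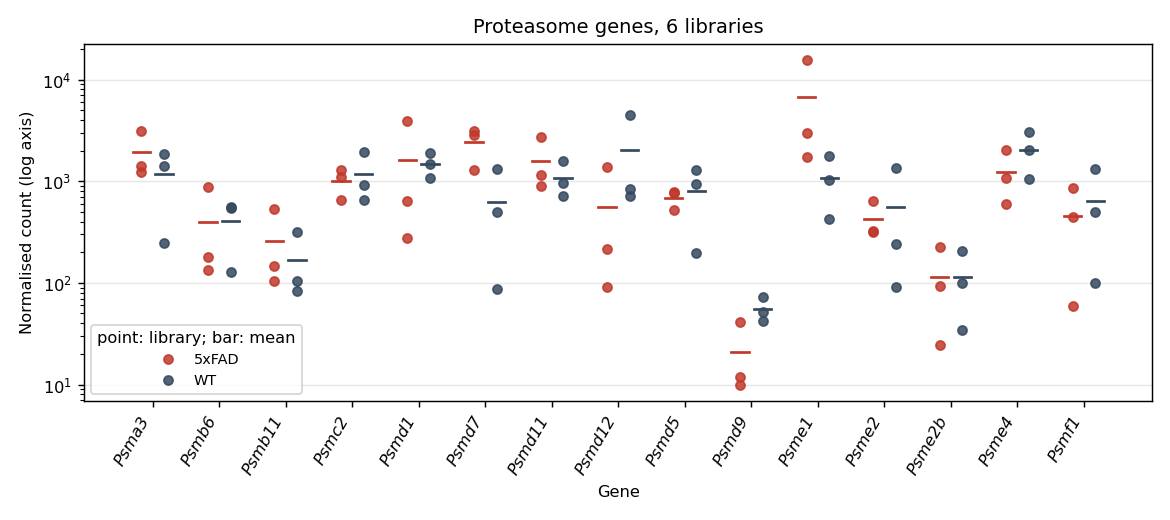
Normalised counts (log axis) of the 15 proteasome genes in 3 5xFAD libraries (red, left of each pair) and 3 WT libraries (dark, right), with the mean of each group as a bar. Single libraries lie far from the others in several genes, such as Psme1 at 15515 in 5xFAD library 3 and Psmd7 at 87.6 in WT library 3.

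Psme1 and Psme2 encode the subunits of an interferon-inducible ring that activates the core, and lie near each other on chromosome 14 (55578123 to 55581529, plus strand, and 55587441 to 55591113, minus strand). Psme1 was at 2981, 1722 and 15515 normalised counts in 5xFAD, and at 430, 1758 and 1023 in WT. 5xFAD library 3 was 9.01 times the lowest of its group, and 5xFAD library 2 lay within the WT range. The log2 fold change was 2.23 (SE 0.84) and did not pass by limma (adjusted p = 0.0916), while it passed on recovered reads by edgeR (2.59, adjusted p = 0.0215) and DESeq2 (2.65, adjusted p = 0.0319). Without 5xFAD library 3 it was 1.302 (limma adjusted p = 0.601), and without 5xFAD library 2 it passed (2.89, limma adjusted p = 0.0357). Psme2 was at 314, 325 and 635 in 5xFAD, and at 239, 91.1 and 1359 in WT, with a log2 fold change of 0.37 (SE 1.03) that turned to -0.46 by edgeR. The sequence of Psme2 is hard to assign, since 33.5% of its words occur in Psme2b, a near copy on chromosome 11.

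For the pair, promoter windows of 300 bases around 1 annotated start of each gene are shown (RefSeq, GRCm38.p6). They are Psme1 at chr14:55578244-55578543 on the plus strand and Psme2 at chr14:55591052-55591351 on the minus strand. The Psme1 window lies within the gene span given above, so the sources place its start differently. Another Psme2 window, at chr14:55590972-55591271, is not shown. Capitals mark the ISRE letters, TGACGTCA and CCAAT on either strand. The Psme1 window holds 1 match to the first of these, just after the start, and the Psme2 window holds none of them.
Psme1: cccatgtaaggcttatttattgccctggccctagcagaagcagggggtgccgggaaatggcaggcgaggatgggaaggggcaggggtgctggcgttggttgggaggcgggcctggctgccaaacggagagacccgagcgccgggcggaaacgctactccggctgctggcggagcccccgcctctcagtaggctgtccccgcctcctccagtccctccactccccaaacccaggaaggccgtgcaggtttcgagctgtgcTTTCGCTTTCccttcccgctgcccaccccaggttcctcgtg
Psme2: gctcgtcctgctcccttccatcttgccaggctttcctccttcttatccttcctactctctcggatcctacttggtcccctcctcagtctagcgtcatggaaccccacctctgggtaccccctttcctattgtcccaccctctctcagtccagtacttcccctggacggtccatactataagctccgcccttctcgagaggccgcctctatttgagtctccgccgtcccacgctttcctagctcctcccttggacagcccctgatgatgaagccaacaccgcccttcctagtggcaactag

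The other activators and the inhibitor had no call. Psme4, a nuclear activator, ranged from 594 to 2035 normalised counts in 5xFAD and from 1058 to 3073 in WT (log2 fold change -0.78, SE 0.89). Psmf1, an inhibitor of the core, ranged from 59.7 to 856 in 5xFAD and from 101 to 1329 in WT, more than 10-fold within each group. Psme2b ranged from 24.3 to 223 in 5xFAD and from 34.4 to 206 in WT, and 78.4% of its words occur elsewhere.

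The spread between replicates was large beside most differences. The median SD of log2(normalised count + 1) within a group was 1.06 in 5xFAD and 1.22 in WT for the proteasome set, and 0.96 in 5xFAD and 0.72 in WT for the MHC set. Over all tested genes it was 1.03 in 5xFAD and 0.95 in WT. Among members, B2m varied least in 5xFAD (0.187) and H2-Q7 least in WT (0.154). The most variable were Psmd12 in 5xFAD (2.00) and Tap2 in WT (2.07). The limma fit gave a gene's own spread no weight, because its variance prior had infinite degrees of freedom. The SE of Psme1 or Psmd7 is thus smaller than their own replicates give, and that of B2m or H2-Q10 is larger. For B2m this SD was 0.187 in 5xFAD and 0.345 in WT, and for H2-Q10 it was 0.387 in 5xFAD and 0.411 in WT.

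**Figure D5:**
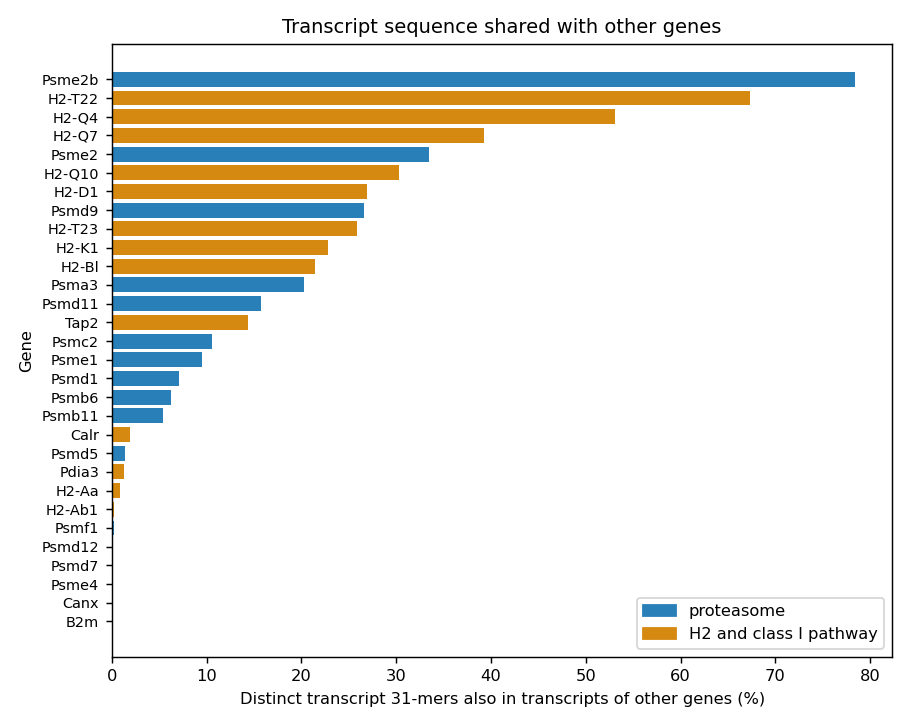
Share of the distinct 31-base words in each member's GENCODE transcripts that also occur in transcripts of other genes, for proteasome genes (blue) and MHC and class I pathway genes (orange). Of the 30 members, 15 exceed 10%, from 10.5% for Psmc2 to 78.4% for Psme2b, and B2m, Canx, Psme4 and Psmd7 share none.

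The genes that act around these members were taken from lists. Of 108 symbols in 7 lists of partners and regulators, 29 were listed and tested. Of these 0 passed by limma and by edgeR, and 4 had an unadjusted limma p under 0.05, where the share of all tested genes was 16.3%. DESeq2 called 1 of the 29 higher (Cd40), against 3.93% of all genes, and 1 lower (Ubqln1), against 6.36%. The median log2 fold change of the 29 was -0.41. The genes given with values per library are the 4 with an unadjusted limma p under 0.05, chosen after their values were seen. Among the 8 transcription and interferon signalling genes the median was 0.34, with 4 positive and 4 negative. Ifngr1, a chain of the interferon gamma receptor, was at 7815, 2563 and 2221 normalised counts in 5xFAD, and at 1802, 493 and 466 in WT (log2 fold change 2.25, SE 0.87; limma adjusted p = 0.109), and all 5xFAD libraries were higher. Cd40, a co-stimulatory receptor, was at 1546, 1291 and 1483 in 5xFAD, and at 491, 228 and 233 in WT (2.27, SE 0.99; limma adjusted p = 0.177), also without overlap. Of the 7 chaperones and translocation genes of the endoplasmic reticulum, 6 were negative (median -0.48), among them Hspa5, a main chaperone there, at 4018, 2958 and 1991 in 5xFAD, and 14673, 3483 and 11442 in WT (-1.54, SE 0.67; limma adjusted p = 0.180), with overlap. Of the 6 proteasome partners 4 were negative (median -0.88). Among them Ubqln1, which shuttles ubiquitin-tagged proteins to the proteasome, was at 324, 120 and 83.6 in 5xFAD, and 1100, 1044 and 426 in WT (-2.40, SE 1.03, limma adjusted p = 0.172). Of the 29, the groups did not overlap for Ifngr1, Cd40 and Nfkb1 (5xFAD higher) and for Ubqln1 and Ecpas (5xFAD lower). The share of all tested genes without overlap was 18.1%, so the lack of overlap is no result about these genes. The ERAD list had 1 tested gene, Vcp (-0.43), and the peptidases 3, with a median of -0.54.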

How the data were processed

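RNA was measured in 6 libraries of sorted meningeal lymphatic endothelial cells. The deposited table holds a normalised signal, which by its values is gene counts divided by 1 factor per library by the authors. Per the submitters' processing notes, FastQC, Trimmomatic, Salmon, DESeq2 and mm10 were used; versions and settings are not given in the sources used here. All values (100%) were whole multiples of the smallest value above 0 of their library (tolerance 1e-06), which gave back whole reads. In every listed gene the SD of log2(reads + 1) was under 2 within each genotype (highest 1.99961 in both), which no source used here states as a filter; its effect on the calls was not tested.

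Genes with a mean of at least 10 (4152) were tested with limma 3.58.1 in R 4.3.3 on log2(value + 1), with a prior following mean level; fold changes on this scale understate the change of low genes. Nothing used here says whether the pools were prepared apart, so p-values speak only for these libraries. In the limma fit they rest on the spread of genes of like mean level, not on each gene's own spread. Whether counting used strand is not given in the sources used here. Alternatives used edgeR 4.0.16, DESeq2 1.42.0 and voom on recovered reads (edgeR called 80 genes higher and 171 lower), other pseudocounts (0.5, 5), filters (none, 50), priors, scalings and thresholds, each library left out and the replicate number as a block. The members, lists and tests were chosen with earlier results of these data known. Values per library were to be given for members that were called, did not overlap or were the highest of their role; those of other members were chosen after the values were seen. The result of 1 list of related genes is not reported here. Transcript words of 31 bases came from GENCODE M21.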

Additional observations from a re-analysis of the deposited data

How the results depend on the processing

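The H2-Bl call held in all 20 settings (limma, edgeR, DESeq2 or voom adjusted p up to 0.0295), though the looser threshold of 0.1 could not lose it. The count of proteasome genes called higher, 0, became 1 by edgeR and 1 by DESeq2 (Psme1) and 2 at an adjusted p under 0.1 (Psmd7 and Psme1, a looser threshold). Over all genes, 78 higher and 186 lower became 49 and 116 under the filter at a mean of 50, which tests fewer genes, and the higher count became 120 with quantile normalization, 163 by DESeq2 (the cause was not tested for either) and 134 at an adjusted p under 0.1. With quantile normalization the split was 120 higher and 160 lower.

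Without 1 library, 0 to 1 proteasome genes were higher and 0 to 1 lower, 0 to 0 MHC genes higher and 1 to 1 lower, and 56 to 84 of all genes higher and 145 to 192 lower. The set medians ran from -0.22 to 0.43 (proteasome) and from -0.52 to 0.21 (MHC), within the spread between libraries. The sign changed without at least 1 library in 16 of 30 members, none of them called, whose log2 fold changes then ran over these ranges: Canx -0.52 to 0.34, H2-Ab1 -0.032 to 1.52, H2-D1 -0.15 to 0.48, H2-K1 -0.59 to 0.036, H2-Q4 -0.39 to 1.25, H2-T22 -0.37 to 1.49, Psmb11 -0.18 to 1.11, Psmb6 -1.12 to 0.23, Psmc2 -0.45 to 0.32, Psmd1 -1.79 to 0.13, Psmd11 -0.017 to 0.77, Psmd5 -0.69 to 0.67, Psme2 -0.51 to 1.44, Psme2b -0.88 to 0.69, Psmf1 -1.52 to 0.60, Tap2 -1.10 to 0.79. Among those that kept their sign, ranges were H2-Q7 -1.39 to -0.14, Psme4 -1.22 to -0.34, Pdia3 -2.24 to -1.11, Calr 1.00 to 2.29 and Psmd9 -2.21 to -1.23. With the replicate block the set medians were -0.12 and 0.10 and the counts 0 and 1, with 80 genes higher and 190 lower among all tested. Deviations of libraries with 1 number had correlations of 0.00247, -0.0157 and -0.0126 over all tested genes. Of the 6 libraries, 0 correlated best with its own number. No pairing by number was seen in this check, which cannot exclude one that touches only some genes.

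Uncalled members turned sign by edgeR and DESeq2 (the cause was not tested): Psmd1 to 0.089 and 0.12, Psmd5 to -0.27 and -0.22, Psme2 to -0.46 and -0.41, and Tap2 to -0.39 and -0.36. Psme2b turned to 0.0033 by DESeq2 and 0.10 with quantile normalization, and Tap2 to -0.024 when libraries were scaled to the same total, which moved the median of all genes by -0.12. Psmd9 gave no value under the filter at a mean of 50. Low reads limit H2-Bl and Psmd9 most.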
